A study of Mus musculus with 91 samples.

Results

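Mature microRNAs (miRNAs) of the E7.5 extraembryonic ectoderm (Exe) were compared between Dnmt1-KO and control mouse embryos. The comparison rests on 8 small-RNA libraries out of 91 samples in the series, 4 of control Exe and 4 of Dnmt1-KO Exe, chosen by their labels, and the read counts of all 1504 mature miRNAs in the deposited table. The Dnmt1-KO embryos came from zygotes injected with the mRNA of a cytosine base editor, hA3A-eBE3-Y130F, together with 1 guide RNA that writes a premature stop codon into Dnmt1. The zygotes were from F1 females (C57BL/6J x DBA2) mated with C57BL/6J males carrying an Oct4-EGFP transgene, so all groups share this hybrid background and reporter, and embryos were carried by ICR foster mothers. The controls were embryos of the same cross and age. Each injected embryo is edited on its own, no genotype was given for the embryos behind single libraries, and the number of embryos pooled per library was not stated. Since nothing in the labels says that replicates came from separate embryos or litters, p-values measure the spread between these libraries. A miRNA table holds no Dnmt1 mRNA, so the loss of the targeted gene could not be checked here. The Exe was cut from the epiblast (Epi) with needles.

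DNMT1 is the maintenance methyltransferase, which copies DNA methylation onto the new strand after replication. In an animal cell, a mature miRNA of about 22 bases guides Argonaute proteins to mRNAs that pair with its seed, bases 2 to 8 from the 5′ end, and lowers their translation or stability. Exe is the trophoblast stem cell compartment of the conceptus and gives rise to much of the placenta. DNA methylation holds imprinted genes to the expression of 1 parental copy and keeps many germline genes silent in somatic cells. Both kinds of control touch miRNAs: the Dlk1-Dio3 region of mouse chromosome 12 carries one of the largest miRNA clusters of the genome on transcripts made from the maternal copy, miR-483 lies in an intron of the imprinted growth factor gene Igf2, and a cluster on the X chromosome is best known from testis and germ cells.

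The sequences below are those of the miRNAs that the results turn on, taken from RefSeq (GRCm38.p6) and written 5′ to 3′ with the seed in capitals. Of the 597 miRNAs tested, 473 matched a RefSeq mature sequence by name. The hairpin of miR-483, at chr7:142654924-142654996 on the minus strand, gave both of the miRNAs that fell most among well-expressed miRNAs, and their seeds differ.
miR-483-5p: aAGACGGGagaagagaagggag
miR-483-3p: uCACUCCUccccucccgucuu
The members of the germline X cluster that rose lie within chrX:66776757-66839125, all on the minus strand. miR-871-5p and miR-743a-5p share a seed, the miR-465 5′ arms share another, and so do miR-743a-3p and miR-743b-3p, whereas miR-470-5p, miR-871-3p, miR-741-3p, miR-880-3p, miR-878-3p, miR-881-3p and miR-465a-3p each carry a different one.
miR-470-5p: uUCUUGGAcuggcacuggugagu
miR-871-3p: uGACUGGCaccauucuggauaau
miR-871-5p: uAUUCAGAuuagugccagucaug
miR-743a-5p: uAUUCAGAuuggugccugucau
miR-465a-3p: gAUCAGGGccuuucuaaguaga
miR-465a-5p: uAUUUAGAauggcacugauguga
miR-465b-5p: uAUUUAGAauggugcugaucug
miR-465c-5p: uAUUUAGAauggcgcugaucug
miR-741-3p: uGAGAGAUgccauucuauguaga
miR-880-3p: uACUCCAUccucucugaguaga
miR-878-3p: gCAUGACAccacacuggguaga
miR-881-3p: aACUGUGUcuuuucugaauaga
miR-743a-3p: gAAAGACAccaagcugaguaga
miR-743b-3p: gAAAGACAucaugcugaauaga
The leading members of the Dlk1-Dio3 cluster that rose lie on the plus strand of chromosome 12, from chr12:109563692-109563785 for the hairpin of miR-770 to chr12:109743158-109743236 for that of miR-409. No 2 of the 7 shown share a seed.
miR-770-5p: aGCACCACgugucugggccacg
miR-673-5p: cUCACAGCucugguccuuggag
miR-665-3p: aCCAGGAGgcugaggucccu
miR-127-3p: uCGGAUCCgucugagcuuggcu
miR-434-5p: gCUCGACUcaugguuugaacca
miR-485-3p: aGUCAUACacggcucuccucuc
miR-409-3p: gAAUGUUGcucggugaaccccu
miR-1195 (chr17:70860503-70860600) and miR-199a-5p rose outside these clusters. miR-30c-5p fell, and miR-30e-5p, with the same seed, is shown beside it because it did not pass the test.
miR-1195: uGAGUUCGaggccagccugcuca
miR-199a-5p: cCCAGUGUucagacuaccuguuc
miR-30c-5p: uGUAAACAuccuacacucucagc
miR-30e-5p: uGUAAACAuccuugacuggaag
The miR-17 seed family, from 3 hairpin clusters on chromosomes 14, 5 and X, had negative fold changes in each of its 6 tested members.
miR-17-5p: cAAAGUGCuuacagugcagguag
miR-20a-5p: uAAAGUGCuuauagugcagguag
miR-93-5p: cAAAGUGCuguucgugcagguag
miR-106b-5p: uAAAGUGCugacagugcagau
miR-106a-5p: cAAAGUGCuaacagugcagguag
miR-20b-5p: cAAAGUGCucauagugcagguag

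The 4 control libraries held 499399 to 2069678 miRNA counts and the 4 Dnmt1-KO libraries 675619 to 1504155. Control libraries detected 616 to 662 of the 1504 miRNAs, whereas Dnmt1-KO replicates 1 and 2 detected 450 and 459 and replicates 3 and 4 detected 569 and 656. Thinning each library to 499399 counts left this nearly unchanged, at 442 and 456 miRNAs expected for replicates 1 and 2 against 564 and 638 for replicates 3 and 4 and 616 to 652 for controls, so these 2 libraries stand apart by more than their depth. Their log-scale correlations with the other libraries of the 8 lay between 0.850 and 0.877, against 0.915 to 0.934 among controls and 0.871 to 0.915 between controls and Dnmt1-KO replicates 3 and 4. Control replicate 2 was low in miRNAs of the Hox clusters, at 0.0591% of its counts against 0.468% to 0.853% in the other 3 controls. Markers of the labelled tissue were present: the trophoblast cluster within Sfmbt2 took 12.7% to 15.9% of counts in Exe controls and 0.62% to 0.757% in Epi controls of the same day, and the epiblast cluster miR-302-367 took 3.64% to 5.05% against 22.2% to 23.2%. Some reads were assigned to several entries: 77 tested entries in 38 sets had identical counts in all 8 libraries, such as miR-337-3p and miR-3544-5p, miR-465a-3p and miR-465c-3p, or miR-486a-5p and miR-486b-5p, and the copies are not independent.

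In Dnmt1-KO Exe, miRNAs of the Dlk1-Dio3 and germline X clusters rose, both arms of miR-483 fell, and most other miRNAs did not pass the test. Of 597 miRNAs that passed the filter on low counts, 100 (16.8%) had an unadjusted p under 0.05 and an absolute log2 fold change over 0.5, the thresholds of the study, with 63 higher (10.6%) and 37 lower (6.2%). The 63 that rose comprised 30 of the Dlk1-Dio3 cluster, 17 of the germline X cluster and 16 others, and none of the 37 that fell belonged to either cluster. With p-values adjusted over all tested miRNAs by the Benjamini-Hochberg method, 30 passed (5.03%), of which 25 were higher (4.19%) and 5 lower (0.838%). The 4 libraries of one group lay wholly above those of the other for 78 miRNAs (13.1%), 46 higher (7.71%) and 32 lower (5.36%) in Dnmt1-KO. Counting each set of entries with identical counts once left 95 calls of 558, 61 higher and 34 lower, and 28 after adjustment. The adjusted count rested on single libraries: it was 16 without control replicate 1, 17 without control replicate 4 and 19 without Dnmt1-KO replicate 3. Without Dnmt1-KO replicates 1 and 2, 90 miRNAs passed the unadjusted thresholds, 62 of them also called with all libraries, and 36 passed after adjustment. Without replicates 3 and 4, 172 passed, 56 higher and 116 lower.

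**Figure D1:**
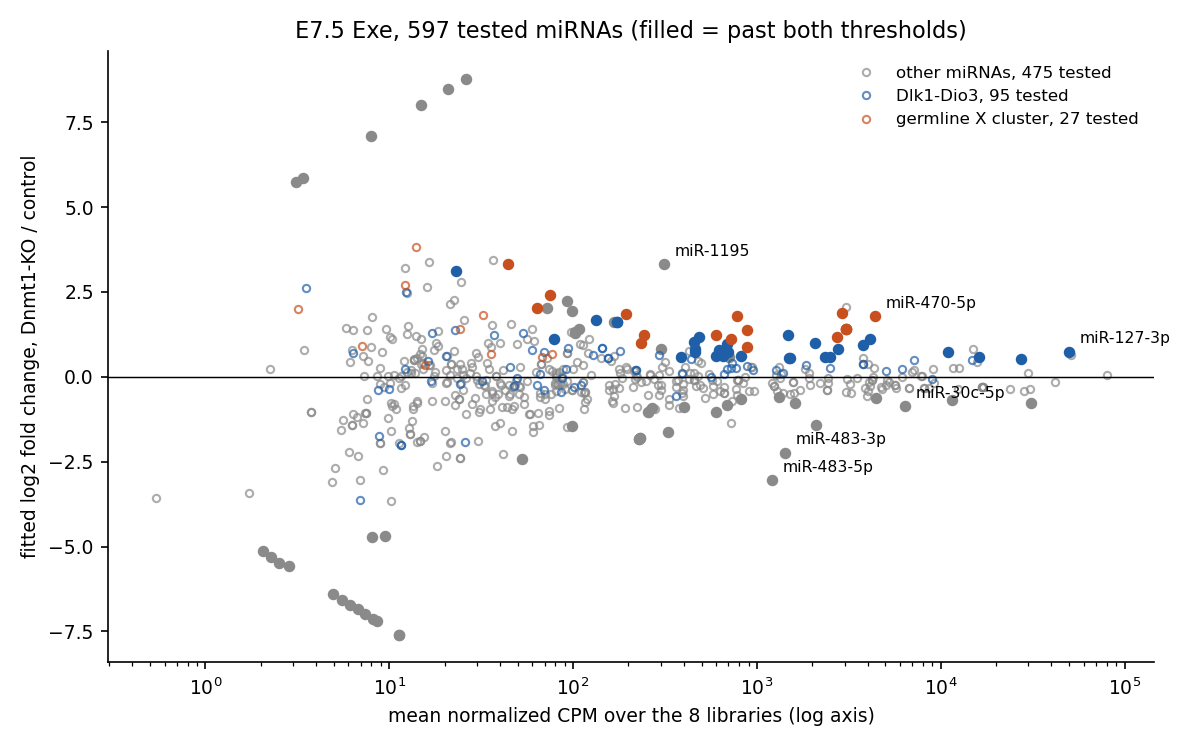
Fitted log2 fold change of Dnmt1-KO over control (vertical axis) against the mean normalized CPM over the 8 libraries (horizontal axis, log scale) for the 597 tested miRNAs in E7.5 Exe. Filled points passed both thresholds: 30 of the Dlk1-Dio3 cluster (blue) and 17 of the germline X cluster (orange) lie above 0, miR-483-5p and miR-483-3p lie lowest among miRNAs near 1000 CPM, and the points at the far top and bottom left are miRNAs with no count in one of the groups.

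The miRNA with the smallest p of all was miR-483-5p, which fell. Its level, as CPM after TMM scaling (normalized CPM), was 2199.8, 1780.3, 2465 and 2155 in control replicates 1 to 4 and 411, 295, 221 and 119 in Dnmt1-KO replicates 1 to 4 (log2 fold change -3.04, SE 0.39, adjusted p = 0.000141). The highest Dnmt1-KO library lay far below the lowest control. From the other arm of the same hairpin, miR-483-3p was measured at 2332, 1595, 2849.9 and 2647 in controls and at 1119, 579, 196 and 111 in Dnmt1-KO (log2 fold change -2.23, SE 0.58, adjusted p = 0.0258). Here too the groups did not overlap, although Dnmt1-KO replicate 1 lay nearest to the controls. Both calls stayed under each single-library omission. Igf2, the host gene of miR-483, is expressed from the paternal copy and encodes a fetal growth factor.

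Other imprinted miRNAs outside chromosome 12 moved in both directions. Of 9 tested members of the list of other imprinted miRNAs, 2 rose and 2 fell, the latter being the arms of miR-483. Over all tested miRNAs 10.6% rose and 6.2% fell. The median log2 fold change of the list was 0.45. miR-296-3p and both arms of miR-298, from the imprinted Gnas domain on chromosome 2, had positive values. The other arm, miR-296-5p, had a log2 fold change of -0.37 and was not called. miR-296-3p stood at 610.1, 556, 566 and 538 in controls and 1026, 647, 752 and 958 in Dnmt1-KO (log2 fold change 0.58, SE 0.27, adjusted p = 0.257), a call that did not hold after adjustment and was lost in 7 of the 8 single-library omissions. The other rise was miR-298-3p, at 75.9, 47.6, 87.5 and 23.0 in controls and 89.6, 358, 126 and 49.7 in Dnmt1-KO (log2 fold change 1.40, SE 0.62, adjusted p = 0.234). Its groups overlapped, replicate 2 was the highest Dnmt1-KO library, and without it the log2 fold change was 0.58 and not called. The other and more abundant arm, miR-298-5p, was at 13650.4, 10968, 14078 and 14448 in controls and 19911, 18563, 17158 and 16812 in Dnmt1-KO without overlap, but its log2 fold change of 0.45 lay under the threshold. miR-335-3p, from an intron of the paternally expressed gene Mest, was spread too widely to call, with 14693, 6848, 10090.1 and 11581 in controls and 10763, 13249, 26128 and 25792 in Dnmt1-KO (log2 fold change 0.81, SE 0.53, adjusted p = 0.46).

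**Figure D2:**
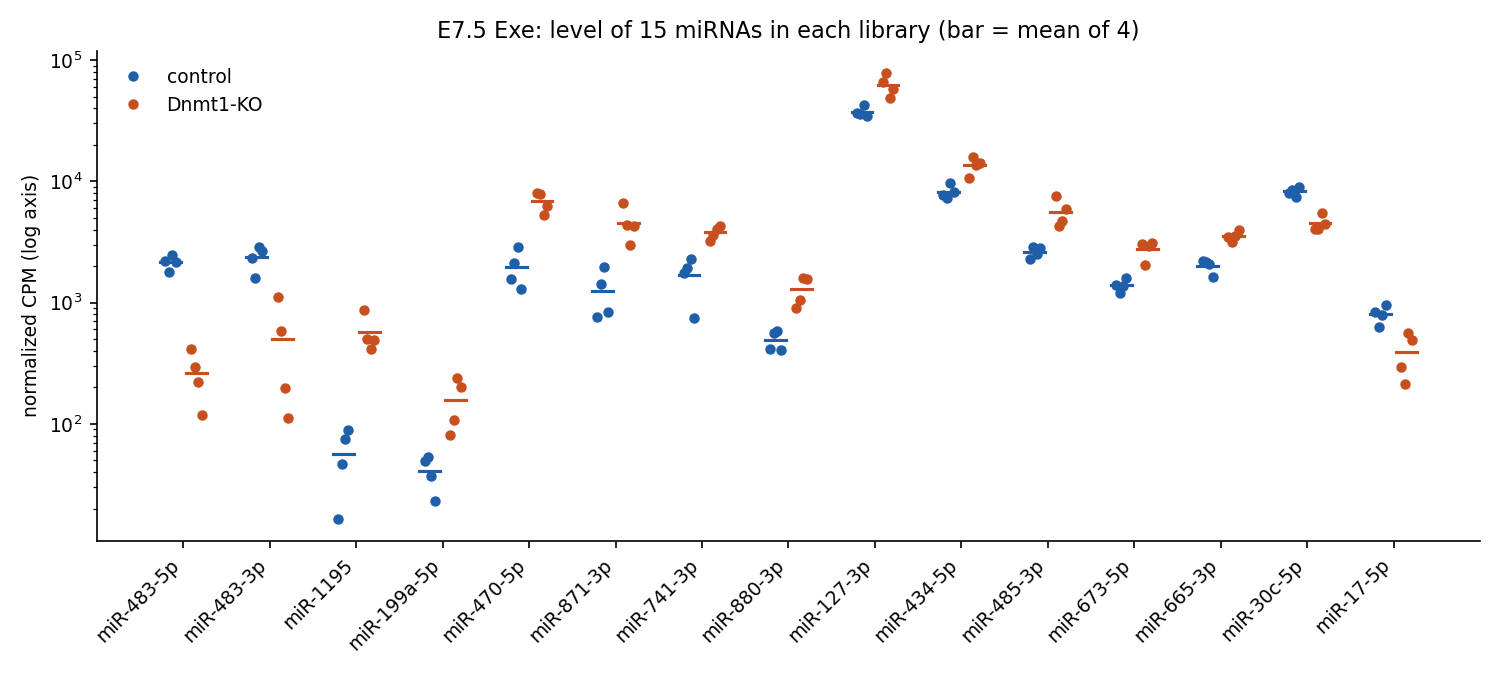
Normalized CPM (log axis) of 15 miRNAs in each of the 4 control libraries (blue) and 4 Dnmt1-KO libraries (orange) of E7.5 Exe, with horizontal bars at the group means. The groups do not overlap for any of these 15 miRNAs, which were chosen among those that passed the adjusted threshold with no overlap. Both arms of miR-483, miR-30c-5p and miR-17-5p lie lower in Dnmt1-KO and the other 11 lie higher.

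The germline X cluster rose in all its abundant members. It is a dense, fast-evolving group of hairpins that is best known for expression in testis. Of its 34 listed entries, 27 were tested, and 17 of them rose (63.0%, against 10.6% of all tested miRNAs), 12 after adjustment, with none lower. Over the tested members the median log2 fold change was 1.42, against -0.09 over all 597, and all 27 fitted values were above 0. The 10 members that did not pass were scarce, with control means of 1.22 to 59.2 normalized CPM, and 3 of the entries that rose, miR-465a-3p, miR-465b-3p and miR-465c-3p, count nearly or exactly the same reads. In share of all miRNA counts the cluster took 1.04%, 1.47%, 1.85% and 0.747% in control replicates 1 to 4 and 3.23%, 3.55%, 3.40% and 3.68% in Dnmt1-KO, or 1.28% ± 0.483 (SD, n = 4) against 3.46% ± 0.194 (SD, n = 4). The lowest Dnmt1-KO share lay well above the highest control share.

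The most abundant members moved together. miR-470-5p was at 1548, 2135, 2891 and 1298 normalized CPM in controls and at 7976, 7804, 5319 and 6269.6 in Dnmt1-KO (log2 fold change 1.80, SE 0.25, adjusted p = 0.000161). For miR-871-3p the controls held 755, 1428, 1967 and 829 and the Dnmt1-KO libraries 6625, 4381, 3000.5 and 4242 (log2 fold change 1.87, SE 0.29, adjusted p = 0.00068). Neither overlapped between groups, and Dnmt1-KO replicates 1 and 2 were the 2 highest in both. miR-741-3p and miR-880-3p showed another order within the mutant group. Control values of miR-741-3p were 1758, 1932, 2301 and 743 and Dnmt1-KO values 3205, 3578, 4068 and 4284 (log2 fold change 1.17, SE 0.29, adjusted p = 0.0208), while miR-880-3p went from 414, 560.1, 580.3 and 409.6 to 909, 1051, 1606 and 1569 (log2 fold change 1.39, SE 0.32, adjusted p = 0.015). In these the Dnmt1-KO replicates 3 and 4 were highest, and control replicate 4 lay lowest of the controls in each of the 4 but miR-871-3p. The miR-465 3′ arm, counted under miR-465a-3p, rose from 1237, 2047, 2439.9 and 915 to 4189, 5059, 4148 and 4414 (log2 fold change 1.42, SE 0.31, adjusted p = 0.00817).

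Less abundant members included the steepest rises of the cluster. miR-881-3p was at 8.24, 4.88, 9.09 and 9.57 normalized CPM in controls and 85.0, 106, 96.1 and 36.5 in Dnmt1-KO (log2 fold change 3.33, SE 0.81, adjusted p = 0.0202). miR-878-3p was at 284, 476, 474 and 155 in controls and 1793, 982, 854 and 1186 in Dnmt1-KO (log2 fold change 1.79, SE 0.36, adjusted p = 0.0061). miR-871-5p, the rarer arm of its hairpin, gained about as much as the dominant arm (log2 fold change 1.86, SE 0.37, adjusted p = 0.00556), and miR-465b-5p had a log2 fold change of 2.02 (adjusted p = 0.0258). Across the cluster both arms were tested for 13 hairpins, both fitted values were positive in all 13, and both arms were called in 6. Over all 189 hairpins with both arms tested, 59 had both positive and 14 had both called. Among members that share a seed, the 3 tested miR-465 5′ arms rose by 1.12 to 2.02 on the log2 scale, miR-743a-3p and miR-743b-3p by 1.22 and 0.88, and miR-871-5p and miR-743a-5p by 1.86 and 2.41. The sparse miR-883a-3p and miR-883b-3p, which share another seed, had 2.70 and 0.91 and were not called. Whether members with a shared seed were more alike than others was not tested. miR-743a-5p rests on scattered values (205, 0, 179 and 121 in Dnmt1-KO), and miR-743b-3p lost its call without control replicate 4, where its log2 fold change was 0.65.

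Of 48 tested miRNAs of the X chromosome that are not on the cluster list, 1 rose and 4 fell. Over all tested miRNAs 10.6% rose and 6.2% fell. The median log2 fold change of the 48 was -0.18. The list was made by name, so a miRNA that it leaves out is counted here wherever it lies on the chromosome. The 1 that rose, miR-471-5p, was named after its values were seen, with 52.8, 59.8, 75.6 and 49.8 in controls and 94.3, 126, 186 and 176 in Dnmt1-KO (log2 fold change 1.28, SE 0.42, adjusted p = 0.0907). The count of cluster members that rose was 17 or 18 under each single-library omission and 20 without Dnmt1-KO replicates 1 and 2. On replicates 1 and 2 alone it was 13, with 3 members lower.

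**Figure D3:**
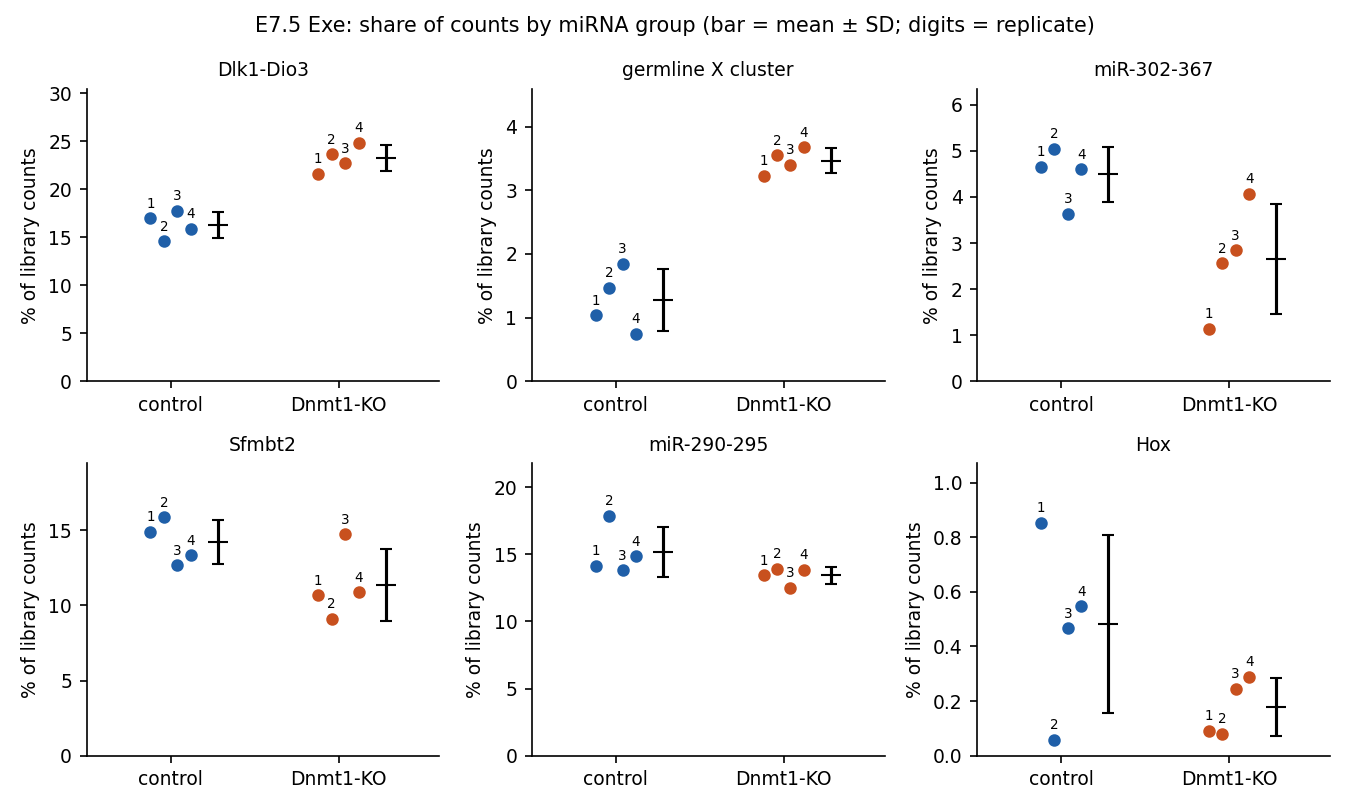
Percent of all miRNA counts of a library that fell on 6 miRNA groups, 1 panel a group with its own axis from 0, for the 4 control and 4 Dnmt1-KO libraries of E7.5 Exe (points, digits give the replicate) with mean ± SD. The Dlk1-Dio3 and germline X shares do not overlap between control and Dnmt1-KO, whereas Sfmbt2, miR-290-295, miR-302-367 and Hox shares do.

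The Dlk1-Dio3 cluster rose by smaller steps over many more members. The maternal copy of this region makes a chain of noncoding RNAs, Meg3, the transcript antisense to Rtl1, Rian and Mirg, which carry its miRNAs. Of 113 entries placed between Dlk1 (chr12:109452485-109463336) and Dio3 (chr12:110279230-110281097) 95 were tested, 30 rose (31.6%, against 10.6% of all tested miRNAs) and none fell, and 10 passed after adjustment. The median log2 fold change was 0.54 over these 95 and -0.18 over the 502 tested miRNAs outside. Where the scale factors were computed without the cluster, those medians were 0.65 and -0.08. Other miRNAs of chromosome 12 gave no call among 12 tested. In share of counts the cluster took 17.0%, 14.6%, 17.8% and 15.9% in control replicates 1 to 4 and 21.6%, 23.7%, 22.8% and 24.9% in Dnmt1-KO, or 16.3% ± 1.36 (SD, n = 4) against 23.2% ± 1.37 (SD, n = 4), without overlap. Library by library, the median difference of cluster members from the control mean was 0.11, 0.22, 0.50 and 0.75 on the log2 scale in Dnmt1-KO replicates 1 to 4, and that of all other tested miRNAs was -0.51, -0.58, -0.23 and -0.03. In each library the cluster lay above the rest. Without Dnmt1-KO replicate 4, 24 members rose and 2 fell, and without control replicate 2, 21 rose. On Dnmt1-KO replicates 1 and 2 alone, 22 members rose and 12 fell, with a median of 0.12.

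By level, among the 23 members with control means over 1000 normalized CPM 22 had positive fold changes, 12 rose, and 12 did not overlap between groups. Of 34 members between 100 and 1000, 30 were positive and 13 rose. Among the 38 members at 100 or less 22 were positive and 5 rose, with fitted values from -3.62 to 3.12. Over all tested miRNAs, the cluster included, 18 of 118 rose over 1000 normalized CPM, 22 of 157 between 100 and 1000, 15 of 170 between 20 and 100 and 8 of 152 under 20, and 7.71% did not overlap and were higher. Calls were thus more frequent at high levels among all miRNAs too. Both arms were tested for 40 hairpins, of which 26 had both arms positive, 5 had both called and 17 had 1 called. Over all 189 hairpins with both arms tested, those numbers were 59, 14 and 39. The 40 count hairpins with identical reads, such as miR-337 and miR-3544, separately.

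Of the 12 tested miRNAs antisense to Rtl1, 5 rose and 11 were positive, where 63 (10.6%) and 276 of all 597 tested miRNAs did so. These miRNAs pair fully with the Rtl1 mRNA, which is made from the paternal copy. The dominant one, miR-127-3p, stood at 36237, 35615, 42906 and 34563 in controls and 65676, 78071, 48444 and 58133 in Dnmt1-KO (log2 fold change 0.75, SE 0.14, adjusted p = 0.00329). It was among the 5 most abundant miRNAs of control Exe and took the largest share of the cluster. Its rare arm miR-127-5p was at 49.5, 76.9, 42.6 and 40.2 in controls and 58.2, 209, 23.7 and 57.7 in Dnmt1-KO and did not pass. miR-434-5p rose from 7775, 7214, 9608 and 8204 to 10667, 15957, 13658 and 14255 (log2 fold change 0.73, SE 0.18, adjusted p = 0.0195), and miR-434-3p, at 12864, 12292, 11563 and 12159 in controls and 22523, 14607, 15154 and 16605 in Dnmt1-KO, did not overlap but missed the fold threshold at 0.50. miR-433-3p rose in all Dnmt1-KO libraries, most in replicates 1 and 2, from 2416, 2643, 2642 and 2598 to 6881, 5803, 3247 and 3820.1 (log2 fold change 0.94, SE 0.32, adjusted p = 0.0989). Without those 2 libraries its log2 fold change was 0.46 and its call was lost.

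Next to Meg3, at the 5′ end of the chain, 7 of 12 tested miRNAs rose, 4 of them after adjustment, against 10.6% and 4.19% of all tested miRNAs. miR-673-5p was at 1407, 1189.7, 1363 and 1593 in controls and 3022, 2024, 2947 and 3083 in Dnmt1-KO (log2 fold change 0.997, SE 0.19, adjusted p = 0.00336). miR-665-3p was at 2196, 2159, 2062 and 1639 against 3459.6, 3174, 3554 and 3965 (log2 fold change 0.81, SE 0.18, adjusted p = 0.00857). miR-770-5p, from an intron of Meg3, was at 355, 268, 257 and 314 and 620.4, 807, 516 and 742 (log2 fold change 1.17, SE 0.30, adjusted p = 0.0244). None of these 3 overlapped between groups. The reads counted as both miR-337-3p and miR-3544-5p gave the steepest adjusted call of the cluster, 92.3, 111, 70.8 and 67.0 in controls against 179, 277, 307 and 281 in Dnmt1-KO (log2 fold change 1.61, SE 0.40, adjusted p = 0.0208). Of the arms of miR-540, miR-540-5p was too sparse to rely on, with 6.60, 12.2, 0 and 0 and 0, 76.8, 46.3 and 41.8, and miR-540-3p had a negative value (log2 fold change -0.55, SE 0.37, adjusted p = 0.469).

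Rian miRNAs gave 2 rises among 5 tested, against 10.6% of all tested miRNAs. The abundant miR-370-3p went from 14129, 10049.5, 14894 and 12722 to 22497, 17812, 18102 and 19595 (log2 fold change 0.59, SE 0.20, adjusted p = 0.0909), and fell under the fold threshold without control replicate 2, at 0.47. miR-341-3p rose from 681, 536, 799.9 and 570.4 to 872, 1085, 1006 and 981 (log2 fold change 0.61, SE 0.22, adjusted p = 0.111). This call was lost with no filter on low counts (log2 fold change 0.60).

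In the long Mirg block 15 of 62 tested miRNAs rose (24.2%, against 10.6% of all tested), 3 after adjustment, with a median log2 fold change of 0.44. miR-485-3p had the smallest p of the cluster, at 2264, 2843, 2505 and 2841 in controls and 7489.6, 4312, 4693 and 5961 in Dnmt1-KO (log2 fold change 1.103, SE 0.20, adjusted p = 0.00314). The most abundant of the block, miR-409-3p, was at 23498, 20558, 23353 and 21948 and 37032, 31169.6, 28762 and 31667 (log2 fold change 0.53, SE 0.14, adjusted p = 0.0316), without overlap but near the fold threshold, which it missed without control replicate 2 (0.47) and without Dnmt1-KO replicate 1 (0.45). miR-409-5p had 0.48 and did not overlap. miR-541-5p and miR-369-5p, from the same block, had -0.08 (adjusted p = 0.942) and 0.27 (adjusted p = 0.59) and overlapped between groups. Whether they differed from the rest of the block was not tested. For miR-541-5p the sign turned to 0.03 where scale factors were computed without the cluster.

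**Figure D4:**
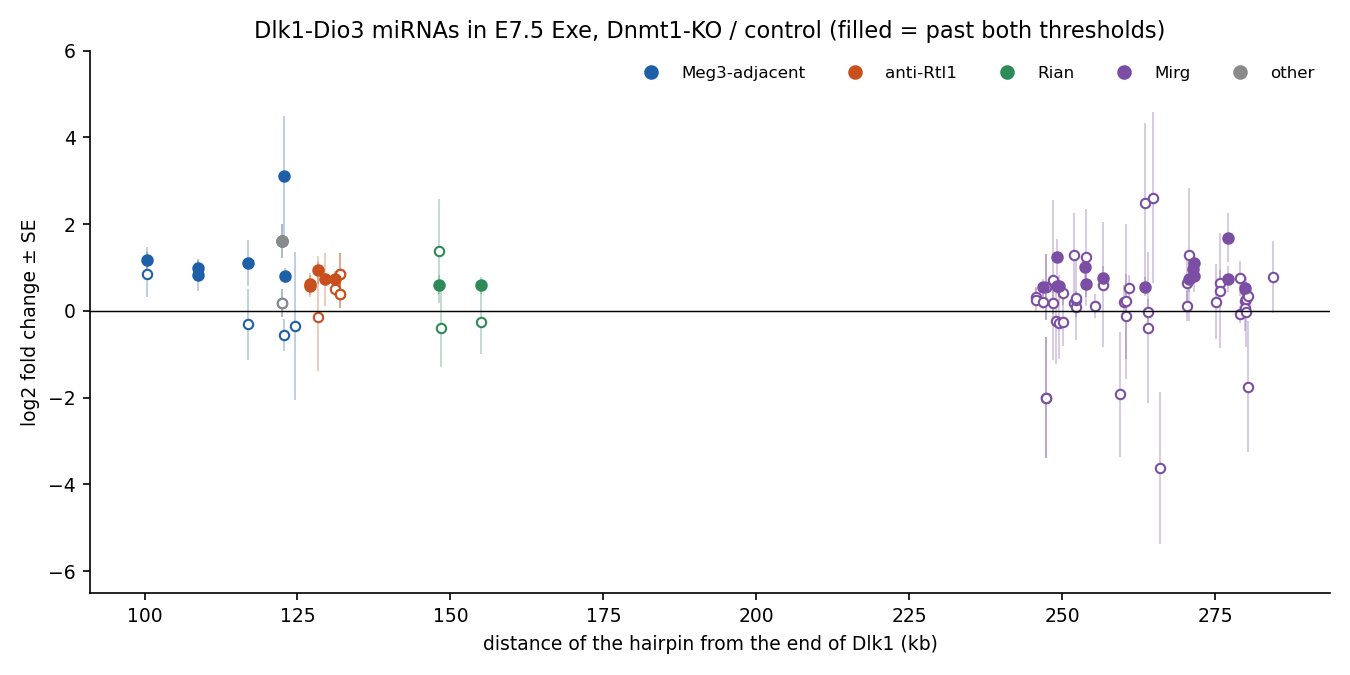
Log2 fold change ± SE of Dnmt1-KO over control in E7.5 Exe (vertical axis) for the Dlk1-Dio3 miRNAs within 400 kb of Dlk1, against the distance of the hairpin from the end of Dlk1 in kb (horizontal axis), coloured by subgroup. Filled points passed both thresholds; the 30 that did lie above 0 and spread from the Meg3-adjacent hairpins near 100 kb to the Mirg block between 246 and 285 kb, and the strongly negative values are open points with long error bars.

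Outside these clusters 16 miRNAs rose and 37 fell. miR-1195 rose from 16.5, 46.4, 75.6 and 88.1 to 861, 503, 414 and 489 normalized CPM (log2 fold change 3.32, SE 0.44, adjusted p = 0.000143), and its groups were far apart. miR-199a-5p, a miRNA of mesenchymal cells, rose from 49.5, 53.7, 36.8 and 23.0 to 80.3, 108, 237 and 199.6 (log2 fold change 1.93, SE 0.40, adjusted p = 0.00633). It was the 1 member called among 7 tested of the mesenchymal list, where 10.6% of all tested miRNAs rose. The 4 fixed markers of mesenchyme summed to 264 to 862 CPM in controls and 422 to 608 in Dnmt1-KO. miR-129b-5p was not counted in any control and had 0, 15, 68 and 97 counts in Dnmt1-KO, where its mean was at least 10.6-fold higher, setting controls at 3 counts per library. It is 1 of 6 called miRNAs with no count in any control. let-7a-5p, of a family that promotes differentiation, was called (log2 fold change 0.82, SE 0.35, adjusted p = 0.208) with Dnmt1-KO replicate 1 above the others (653, 401, 191 and 298), and lost its call in 4 of the 8 single-library omissions. let-7b-5p had 0, 35.4, 13.9 and 24.9 in controls and 46.6, 46.1, 86.6 and 35.8 in Dnmt1-KO, which do not overlap, but did not pass (log2 fold change 1.53, SE 1.04, adjusted p = 0.48).

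Outside the Dlk1-Dio3 and germline X clusters falls outnumbered rises, and they were led by miR-30c-5p after miR-483. miR-30c-5p was at 8003, 8539, 7423 and 8968 in controls and 4014, 4065, 5483 and 4458 in Dnmt1-KO (log2 fold change -0.87, SE 0.15, adjusted p = 0.0021), with no overlap. miR-30e-5p, which shares its seed and differs in its 3′ part, overlapped between groups, at 7765, 8041, 7327 and 7769.7 against 6186, 6839, 9140.2 and 9176 (log2 fold change 0.02, adjusted p = 0.98). Of 12 tested miR-30 family miRNAs 2 fell, against 6.2% of all tested miRNAs, the other being miR-30b-3p (log2 fold change -1.44, SE 0.47, adjusted p = 0.0909).

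The miR-17 seed family, products of clusters that promote proliferation, had negative values in all 6 tested members, from -1.89 to -0.92, and 2 of the 6 fell, against 6.2% of all tested miRNAs. miR-17-5p fell from 834, 633, 784 and 949 to 295, 212, 559.8 and 495 (log2 fold change -1.03, SE 0.29, adjusted p = 0.0465), and was lowest in Dnmt1-KO replicates 1 and 2. miR-93-5p went from 378, 367, 247 and 412 to 203, 148, 181 and 207 (log2 fold change -0.92, SE 0.34, adjusted p = 0.117). Without those 2 libraries the log2 fold change of miR-17-5p was -0.60 and that of miR-93-5p -0.85, and neither passed. Members of the same clusters with other seeds varied, and no difference by seed was tested. miR-20a-3p fell (log2 fold change -1.04), and miR-19a-3p and miR-19b-3p had values of -1.59 and -0.75 at the extremes, without a call. Of 11 tested miRNAs on the miR-17-92 list 5 had positive values. miR-92a-3p, the most abundant miRNA of control Exe, was at 73778, 77209.9, 75980.1 and 85966 and 110590.0, 81618, 66944 and 66109 (log2 fold change 0.06, adjusted p = 0.962), turning to -0.13 without Dnmt1-KO replicate 1. miR-25-3p, from the same hairpin cluster as miR-93, did not overlap between groups but changed by -0.32.

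miR-302-367, the cluster that marks epiblast and pluripotent cells, had no positive fold change in Dnmt1-KO Exe. Of 9 tested members 2 fell, against 6.2% of all tested miRNAs, and none passed after adjustment. Its share of counts was 4.66%, 5.05%, 3.64% and 4.60% in control replicates 1 to 4 and 1.15%, 2.56%, 2.84% and 4.07% in Dnmt1-KO. miR-302b-3p was at 40125, 45491, 31133 and 38320.1 and 10834, 22285, 23393 and 35011 (log2 fold change -0.76, SE 0.26, adjusted p = 0.0989). The fall was deepest in Dnmt1-KO replicate 1, replicate 4 lay within the controls, and without replicates 1 and 2 the log2 fold change was -0.41 and not called. In bulk tissue fewer epiblast cells and less of these miRNAs per cell cannot be told apart. The miR-290-295 cluster, some of whose members share the AAGUGCU seed of miR-302b-3p, had no call among 18 tested. miR-295-3p was at 41118, 52612, 39178 and 43866 and 33932, 39229, 41682 and 43249 (log2 fold change -0.16, SE 0.13, adjusted p = 0.609). miR-293-3p did not overlap between groups, with a log2 fold change of -0.35 under the threshold.

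The trophoblast cluster within Sfmbt2, an imprinted gene expressed in placenta, gave no call among 61 tested entries, of which 19 were positive. Its share of counts was 14.9%, 15.9%, 12.7% and 13.4% in controls and 10.7%, 9.12%, 14.8% and 10.9% in Dnmt1-KO, with Dnmt1-KO replicate 3 within the control range and the other 3 below it. Abundant members such as miR-466e-3p and miR-467c-5p had log2 fold changes of -0.30 (SE 0.17) and -0.37 (SE 0.19). Reads of this repeat-like family fit several entries, so its entries are not independent. Without Dnmt1-KO replicate 3, miR-467c-5p passed at -0.57.

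The miR-322-503 cluster of the X chromosome, whose miRNAs slow the cell cycle, took 2.73%, 1.93%, 2.58% and 2.89% of counts in controls and 1.57%, 1.80%, 1.70% and 1.77% in Dnmt1-KO, without overlap. Its 1 called member of 11 tested was miR-351-5p, with 14112, 11019.5, 15155 and 16334 against 9746, 10902, 6616 and 8207 (log2 fold change -0.67, SE 0.20, adjusted p = 0.0574). In the miR-200 family, which marks epithelia, 1 of 8 tested fell, miR-200c-3p, from 5048, 6667, 5376 and 4525 to 4214, 2979.9, 2978 and 3963 (log2 fold change -0.61, SE 0.18, adjusted p = 0.0577). None of the tested members of the miR-130-301 (7), miR-29 and miR-148 (9), miR-15-16 (6), miR-99-125 (7), miR-34 (2) and neural (5) lists passed. In the miR-181 and miR-183-96-182 lists 1 of 5 and 1 of 6 fell, and in the endoderm list 1 of 6. With 6.2% of all tested miRNAs lower, 1 call in a list of this size is near the background.

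Of 5 tested Hox cluster miRNAs, which mark posterior mesoderm, 2 fell, miR-10b-5p and miR-615-3p, against 6.2% of all tested miRNAs. miR-10b-5p was at 5635, 422, 2906 and 3193 in controls and 631, 466, 1651 and 1818 in Dnmt1-KO (log2 fold change -1.41, SE 0.66, adjusted p = 0.259). Control replicate 2 was as low as the Dnmt1-KO libraries, and the call was lost in 5 of the 8 single-library omissions, that of control replicate 1 among them (-0.93). Without control replicate 2, miR-10a-5p passed at -1.74. miR-615-3p behaved likewise, with 844, 23.2, 555 and 563 and 98.9, 164, 167 and 213. The 5 posterior mesoderm markers summed to 577 to 8387 CPM in controls and 743 to 2821 in Dnmt1-KO.

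Among 13 tested miRNAs of blood and endothelium 4 fell, all entries of miR-486, a miRNA of red cells, and 1 rose. Over all tested miRNAs 6.2% fell and 10.6% rose. On each arm the miR-486a and miR-486b entries have identical counts, so these 4 falls are not independent. miR-486a-5p was at 592, 106, 323 and 412 and 150.2, 99.9, 30.8 and 117 (log2 fold change -1.84, SE 0.82, adjusted p = 0.234), again with control replicate 2 near the Dnmt1-KO libraries, and lost its call in 5 of the 8 single-library omissions. miR-150-5p, of lymphocytes, was high in Dnmt1-KO replicates 1 and 2 (265, 241, 58.1 and 45.8 against 9.89, 45.1, 56.0 and 17.2 in controls), and without these its log2 fold change was 0.68 and not called. The endothelial marker miR-126a-3p did not pass (log2 fold change -0.28, SE 0.50, adjusted p = 0.89). The 5 blood markers summed to 195 to 806 CPM in controls and 132 to 283 in Dnmt1-KO, with miR-223-3p at 0 in all 8 libraries. The 4 endoderm markers summed to 3076 to 5221 CPM in controls and 2898 to 4583 in Dnmt1-KO, with miR-122-5p at 0 in all Dnmt1-KO libraries. The 3 neural markers summed to 43.2 CPM at most in controls and 107 in Dnmt1-KO, with miR-219a-5p at 0 in all. The part of such cells in the falls described here was not tested.

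Several falls rested on no count at all. Of the 37 miRNAs that fell, 13 had no count in any Dnmt1-KO library and control means of at most 22.6 normalized CPM. Only 1 of these passed the adjusted threshold, miR-101a-3p, with 10, 23, 12 and 2 counts in control replicates 1 to 4, and it was at least 3.97-fold lower in Dnmt1-KO, set at 3 counts per library. Over all 597 tested miRNAs, 171 and 169 had no count in Dnmt1-KO replicates 1 and 2, 81 in replicate 3 and 36 in replicate 4. The limits set at 3 counts per library are a fixed floor and measure no error. Reads without molecular identifiers are also not independent molecules.

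The Dnmt3a/3b-DKO, in which the de novo methyltransferases were edited in the same way, was tested against the Dnmt1-KO directly in E7.5 Exe. Of 597 miRNAs 63 (10.6%) differed past the unadjusted thresholds, 32 higher (5.36%) and 31 lower (5.19%) in Dnmt1-KO, and 10 (1.68%) after adjustment. miR-483-5p had the smallest p of this comparison: against the same controls its log2 fold change was -0.28 in Dnmt3a/3b-DKO, and it was lower in Dnmt1-KO by a log2 difference of -2.77 (SE 0.38, adjusted p = 0.000464). For miR-483-3p the difference was -1.55 (SE 0.57, adjusted p = 0.232). miR-30c-5p was lower in Dnmt1-KO as well (-0.96 (SE 0.15, adjusted p = 0.00107)). miR-673-5p of the Meg3 end was higher, at 0.83 (SE 0.19, adjusted p = 0.0292), and so was miR-298-5p at 0.88 (SE 0.13, adjusted p = 0.000681), whose own fold change in Dnmt3a/3b-DKO was -0.44. miR-127-3p had a difference of 0.51 (SE 0.14, adjusted p = 0.0832). The miR-486 entries (miR-486a-5p at -3.56 (SE 0.88, adjusted p = 0.0447)) and miR-101a-3p were lower. miR-5099 was higher by 1.89 (SE 0.39, adjusted p = 0.0157), with 104834, 84488, 29966 and 29318 in Dnmt1-KO replicates 1 to 4, so that replicates 1 and 2 alone stood above the controls (36754, 38257, 42052 and 42305), and without them its fold change against control turned from 0.64 to -0.42.

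In the germline X cluster no member differed between Dnmt1-KO and Dnmt3a/3b-DKO after adjustment, the smallest adjusted p of the edgeR test being 0.335, with differences from -0.82 to 0.58 among the 17 members that rose. Median log2 fold changes over the 27 members were 1.42 for Dnmt1-KO against 1.54 for the Dnmt3a/3b-DKO, measured against the same control libraries, and the shares of counts were 3.46% ± 0.194 and 3.72% ± 0.557 (SD, n = 4 each). In the Dlk1-Dio3 cluster the medians were 0.54 and 0.34, and the shares of counts 23.2% ± 1.37 and 20.7% ± 1.18 against 16.3% ± 1.36 in controls. At the Meg3 end the medians were 0.83 and 0.14. In the direct contrast of the mutants the median difference was 0.059 over the Dlk1-Dio3 cluster, 0.44 at its Meg3 end and -0.28 over the X cluster, against -0.04 over all tested miRNAs.

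In the Epi of the same day the Dnmt1-KO effect was taken against Epi controls, of which there were 3. Epi effects of miR-483-5p and miR-483-3p were -4.35 and -6.29, against -3.04 and -2.23 in Exe, so both arms were low in both tissues. The Dlk1-Dio3 medians were 0.54 in Exe and 0.51 in Epi. Over the germline X cluster the medians were 1.42 in Exe and 2.84 in Epi, and the share of counts went from 0.194% ± 0.107 (SD, n = 3) to 1.49% ± 0.0970 (SD, n = 4) in Epi. The Exe controls thus held more of the cluster than the Epi controls, at 1.28% ± 0.483. The test of the difference between tissues depended on the scaling. With TMM over all 30 libraries 144 of 728 miRNAs (19.8%) differed, 17 higher (2.34%) and 127 lower (17.4%) in Exe, and 38 after adjustment (5.22%), 1 higher (0.137%) and 37 lower (5.08%), but the median difference over all miRNAs was -0.59. With RLE factors the median was -0.28, with TMM within each tissue -0.12, and no miRNA passed after adjustment in either (105 and 103 at the unadjusted thresholds). By the same 3 scalings the median over the 28 tested members of the X cluster was -1.83, -1.51 and -1.36, below that of all miRNAs each time. For miR-470-5p the difference was -1.76 (adjusted p = 0.0115), -1.43 (adjusted p = 0.0731) and -1.28 (adjusted p = 0.123). For miR-880-3p it was -2.59 (adjusted p = 0.0114), -2.26 (adjusted p = 0.0521) and -2.12 (adjusted p = 0.0754). miR-483-3p, the 1 miRNA with an adjusted difference in the other direction, had 3.53 (adjusted p = 0.0213), 3.91 (adjusted p = 0.0521) and 4.04 (adjusted p = 0.0754), its fall being deeper in Epi.

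**Figure D5:**
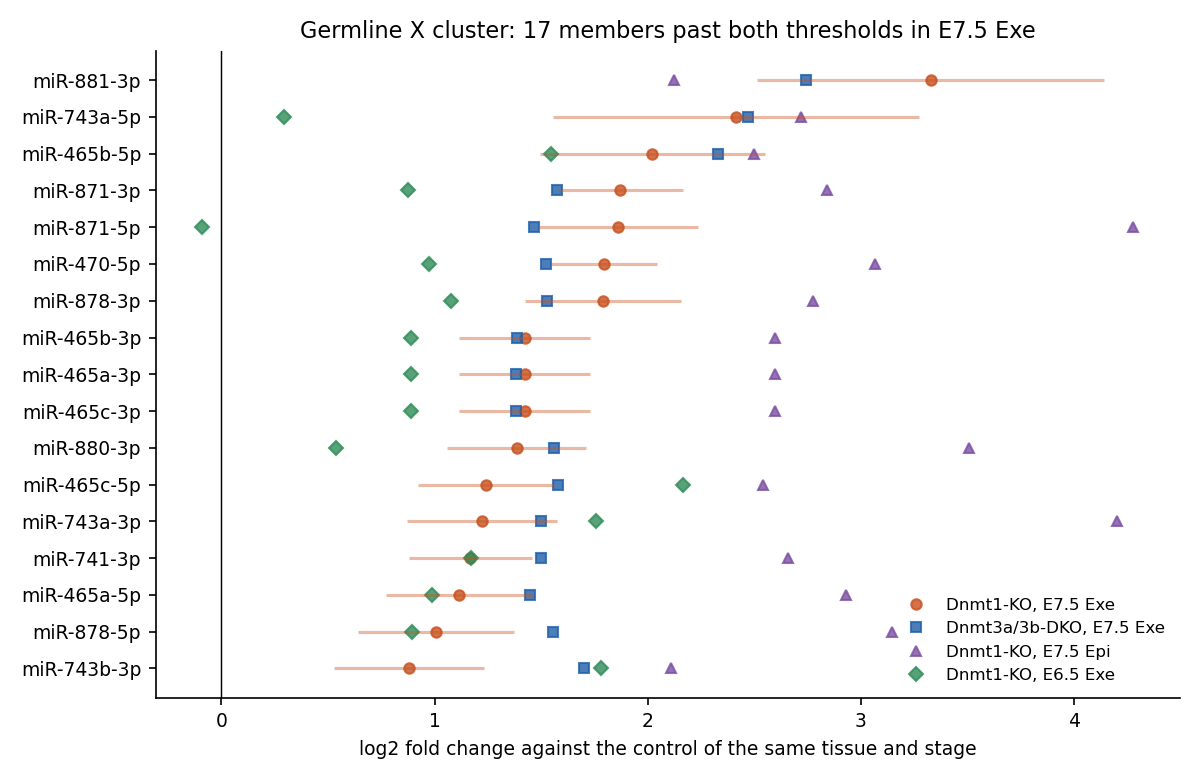
Log2 fold change (horizontal axis) of the 17 germline X cluster miRNAs that rose in E7.5 Exe of Dnmt1-KO (orange circles, bars ± SE), with the values of the same miRNAs in Dnmt3a/3b-DKO E7.5 Exe (blue squares, same controls), Dnmt1-KO E7.5 Epi (purple triangles) and Dnmt1-KO E6.5 Exe (green diamonds). Most E7.5 Epi values lie to the right of the E7.5 Exe values and most E6.5 Exe values to the left, miR-881-3p having no E6.5 value.

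A day earlier, in E6.5 Exe, the same mutant had a median log2 fold change of 0.16 over the Dlk1-Dio3 cluster and 0.89 over the X cluster, against 0.54 and 1.42 at E7.5, and miR-483-5p and miR-483-3p had -1.97 (SE 0.60, adjusted p = 0.192) and -2.05 (SE 0.57, adjusted p = 0.12), neither of which passed after adjustment. Between the stages 56 of 540 miRNAs (10.4%) differed at the unadjusted thresholds, 17 higher (3.15%) and 39 lower (7.22%) at E7.5, and 1 (0.185%) after adjustment. That one was miR-10a-5p, at -7.84 (SE 1.61, adjusted p = 0.0137), a Hox miRNA that was low in control replicate 2 at E7.5. At E6.5 it did not pass the filter on low counts within Exe, where the Hox list took 0.00504% to 0.0158% of counts in controls and spread from 0.00828% to 0.104% in Dnmt1-KO libraries, so the E6.5 side of this difference rests on low counts. miR-483-5p differed between stages by -1.22 (SE 0.73, adjusted p = 0.492) and miR-127-3p by 0.81 (SE 0.34, adjusted p = 0.314). The difference of miR-470-5p was 0.65 (SE 0.47, adjusted p = 0.61). None of these edgeR contrasts passed after adjustment. At the unadjusted thresholds miR-127-3p was called, whereas miR-483-5p and miR-470-5p were not. No adjusted call separated the stages within either cluster.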

How the data were processed

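Small RNAs from 100 pg of total RNA per sample were sequenced by CAS-seq. For the deposited table the authors used fastp 0.20.1 for trimming and Bowtie 1.2.1.1 for alignment (genome GRCm38, miRNAs of miRBase 21), allowed shifts of 2 bases at the 3′ end, and deposited whole-number read counts per mature miRNA. No molecular identifiers were described, so counts include PCR copies. The other deposited tables were not used here, and 0 columns of per-sample values lacked a sample.

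Samples were grouped by their labels. The 16 libraries of E7.5 Exe (4 genotypes) were fitted together with edgeR 4.0.16 (R 4.3.3), TMM scaling, filterByExpr with a minimum count of 10, and the quasi-likelihood test. A miRNA was called at an absolute log2 fold change over 0.5 and an unadjusted p under 0.05, the thresholds of the study, with Benjamini-Hochberg adjusted values beside them. Differences between tissues (30 libraries) and between stages (32 libraries) were interaction contrasts with the same thresholds. The log-scale values behind correlations and per-library medians carry a prior count of 2. Fitted fold changes carry the smaller default prior count of the edgeR fit. Where a group had no counts, 3 counts per library set the bound. The fit of Dnmt1-KO against control was tested on simulated counts with edgeR, DESeq2 and the replicate block. The other contrasts and steps were not.

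Named miRNAs were the leading changes by fold and by p among those whose groups did not overlap, the most abundant miRNAs, the leading members of each list, those the study names, and the leading differences between mutants, tissues and stages. The members of lists, and the lists, were chosen with earlier results of these data known. miR-743a-5p, miR-743b-3p, miR-465a-3p, miR-465c-3p, miR-465c-5p, miR-878-5p, miR-433-3p, miR-431-5p, miR-770-5p, miR-129b-5p, miR-471-5p, miR-298-3p, miR-883a-3p, miR-883b-3p, miR-20a-5p, miR-20b-5p, miR-106a-5p and miR-106b-5p were named after their values were seen. Alternatives were DESeq2 1.42.0, RLE factors, TMM without the Dlk1-Dio3 cluster, 2 other filters, the 8 libraries alone, a replicate block and leaving out each library. Leaving out pairs of Dnmt1-KO libraries and TMM within each tissue or stage were added after seeing the data. Sequences came from RefSeq.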

Additional observations from a re-analysis of the deposited data

Results flagged for a closer look

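In 5 of 214 groups of 4 libraries tested, the extreme library lay far from the rest by Dixon's ratio, which chance gives in about 1 of 20 groups. miR-465b-5p reached 179.7 normalized CPM in Dnmt1-KO replicate 4, and miR-673-5p was low, at 2024, in Dnmt1-KO replicate 2. In controls, miR-293-3p stood at 40020 in replicate 2, the sparse miR-883a-3p was counted in replicate 3 alone, at 11.003, and the miR-15-16 list took 0.567% of counts in replicate 1.

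Differences between Dnmt1-KO and Dnmt3a/3b-DKO in E7.5 Exe passed the adjusted threshold of the edgeR test for 7 named miRNAs. On the log2 scale, miR-483-5p (-2.77), miR-30c-5p (-0.96), miR-486a-5p (-3.56) and miR-101a-3p (-7.77) were lower in Dnmt1-KO, the last with no count in any Dnmt1-KO library, so that its size depends on the prior count. Higher in Dnmt1-KO were miR-673-5p (0.83), miR-298-5p (0.88) and miR-5099 (1.89).

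The Dnmt1-KO effect differed between the tissues of E7.5 (Exe minus Epi) for the miRNAs below with TMM over both tissues. None passed after adjustment with RLE factors or TMM within each tissue. miR-483-3p was the 1 positive difference, at 3.53. In the germline X cluster the differences were -1.76 for miR-470-5p, -2.59 for miR-880-3p, -1.97 for miR-741-3p, -3.44 for miR-743a-3p, -2.28 for miR-465a-5p, -1.80 for miR-465c-5p and -2.63 for miR-878-5p, and -1.66 for each of miR-465a-3p, miR-465b-3p and miR-465c-3p, which count nearly the same reads. In the Dlk1-Dio3 cluster they were -0.77 for miR-434-5p, -0.63 for miR-434-3p and -0.93 for miR-541-5p. Outside both they were -0.68 for miR-30c-5p, -1.02 for miR-295-3p, -0.73 for miR-293-3p and -1.22 for miR-467c-5p. Between E7.5 and E6.5 Exe, miR-10a-5p differed by -7.84.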

How the results depend on the processing

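Of 100 calls in Dnmt1-KO against control, single-library omissions left 90 to 131, and of 30 adjusted calls 16 to 33. DESeq2 gave 58 adjusted calls and the fit with a replicate block 19. With the block 93 miRNAs were called, but same-numbered libraries did not deviate together (correlations of -0.1025, -0.02516, -0.09517 and -0.1523), so the numbers give no pairing. Without Dnmt1-KO replicates 3 and 4 there were 172 calls and 59 adjusted calls, and the Dlk1-Dio3 median was 0.12 in place of 0.54 (0.33 to 0.58 in single omissions). With no filter on low counts, 104 miRNAs in place of 63 differed from Dnmt3a/3b-DKO and 94 in place of 56 between stages. The Dlk1-Dio3 count was 21 to 30 and the X cluster count 17 to 18 in single omissions. Of 78 miRNAs followed under the alternatives, those whose sign turned were not called. The log2 fold change of miR-541-5p was 0.0277 with TMM without the cluster, 0.10 without control replicate 3 and 0.0647 without Dnmt1-KO replicates 3 and 4. The log2 fold change of miR-30e-5p was -0.0930 and -0.0407 without Dnmt1-KO replicate 3 or 4 and -0.27 without both. The log2 fold change of miR-92a-3p ranged from -0.13 (without Dnmt1-KO replicate 1) to 0.152 (without replicate 4), and without replicates 1 and 2 it was -0.23, the log2 fold change of miR-126a-3p 0.0576 and the log2 fold change of miR-5099 -0.42. In single omissions, the log2 fold change of miR-127-5p ranged from -0.20 (without Dnmt1-KO replicate 2) to 1.03, and it was -0.36 without replicates 1 and 2. The log2 fold change of miR-883b-3p ranged from -0.29 (without Dnmt1-KO replicate 2) to 1.91. The cause was not tested. Of 53 named and called miRNAs 41 kept the call under each single-library omission and 40 under every alternative of the processing but the added ones. Depth limits miRNAs under about 3 counts per library.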
